A study of Homo sapiens with 3 samples.

Results

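The collagen genes of H9 human embryonic stem cells were taken as all protein-coding genes whose symbol in GENCODE release 44 has the form COL, number, A, number, which gave 44 genes of the 58051 in the deposited counts and of the 19629 that are protein-coding. H9 is an established line of pluripotent cells derived from a human embryo, and the libraries carried the labels H9, hESC, genotype WT and no treatment. The cells grew without feeder cells in Essential 8 Flex medium on plates coated with recombinant vitronectin, a matrix protein that is not a collagen. Total RNA from 3 replicates was sequenced after ribosomal RNA had been depleted, and 8655155 to 12024802 reads per replicate were counted on genes. There is 1 condition, so no difference between conditions was tested, and the only error is the spread between the 3 replicates. The labels do not say whether these came from separate cultures, so that the spread may be technical. Levels are given in TPM, a unit of RNA level corrected for gene length: the reads of a gene divided by the summed length of all its annotated exons and scaled so that every replicate has the same total.

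Collagens are secreted or membrane-bound proteins in which 3 chains wind into a triple helix, which requires glycine at regular intervals. The chains of a type are encoded by separate genes, and many molecules are made from the products of different genes in a fixed ratio. Fibrillar collagens build the fibers of bone, skin, tendon and cartilage, type IV forms the network of basement membranes, type VI forms beaded filaments around cells, and other families decorate fibrils, span the cell membrane or carry antiangiogenic fragments. Epithelial cells, among which pluripotent stem cells are usually counted by their shape and junctions, rest on a basement membrane, whereas most fibrillar collagen of the body is made by fibroblasts, osteoblasts and chondrocytes. Levels of RNA do not show how much protein was made, folded or secreted.

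Reads were counted on each of the 44 collagen genes. COL6A1 had the highest mean, at 150 ± 37.5 TPM (SD, n = 3), followed by COL18A1, COL26A1, COL5A2, COL4A1, COL4A2 and COL6A2, and these 7 genes were in the class of high expression. The classes are adapted from the study, with genes below a mean of 0.01 TPM nonexpressed and the rest divided into 3 quantiles. Taking the quantiles over protein-coding genes only, with boundaries at 3.35 and 27.0 TPM, was a choice made here. Among the collagen genes 14 were in the medium class, 23 in the low class and none, 0 of 44, was nonexpressed. Of all 19629 protein-coding genes, 13.6% were nonexpressed and 28.8% were in each of the other classes. The low class thus held 52.3% of collagen genes and the high class 15.9%. With boundaries taken over all genes this order turned, and 11 collagen genes were low, 17 medium and 16 high. The shares of all protein-coding genes with those boundaries are not given here, so that these counts have no background to be read against. At least 1 TPM was reached by 32 collagen genes, or 72.7%, against 67.4% of all protein-coding genes, a share near the background. The median of the collagen genes was 2.65 TPM and that of all protein-coding genes 7.10 TPM. COL6A1 and COL18A1 ranked in the top 10% of protein-coding genes, and no other collagen gene did.

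The 44 genes together had 685, 653 and 791 TPM in replicates 1, 2 and 3, a mean of 710 ± 72.5 TPM (SD, n = 3). The sum was highest in replicate 3, and replicates 1 and 2 were closer to each other than to it. In reads this was 15171, 16740 and 14502, or 0.151 ± 0.0148% of all counted reads. COL6A1 and COL18A1 held 34.1 ± 3.58% of the collagen level and the 6 highest genes 67.7 ± 0.895%, so that the level rested on few of the 44 genes. By structural family, the beaded filament genes of type VI had 26.4 ± 3.26% of the collagen TPM, the 11 fibrillar genes 21.8 ± 1.65%, the 6 type IV genes 18.1 ± 1.41%, and the multiplexin genes COL15A1 and COL18A1 13.3 ± 0.596%. These shares depend on the gene length used. With the longest annotated transcript of each gene as its length, type IV had the highest share, at 27.7 ± 1.97%, and type VI had 23.6 ± 2.90%.

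**Figure D1:**
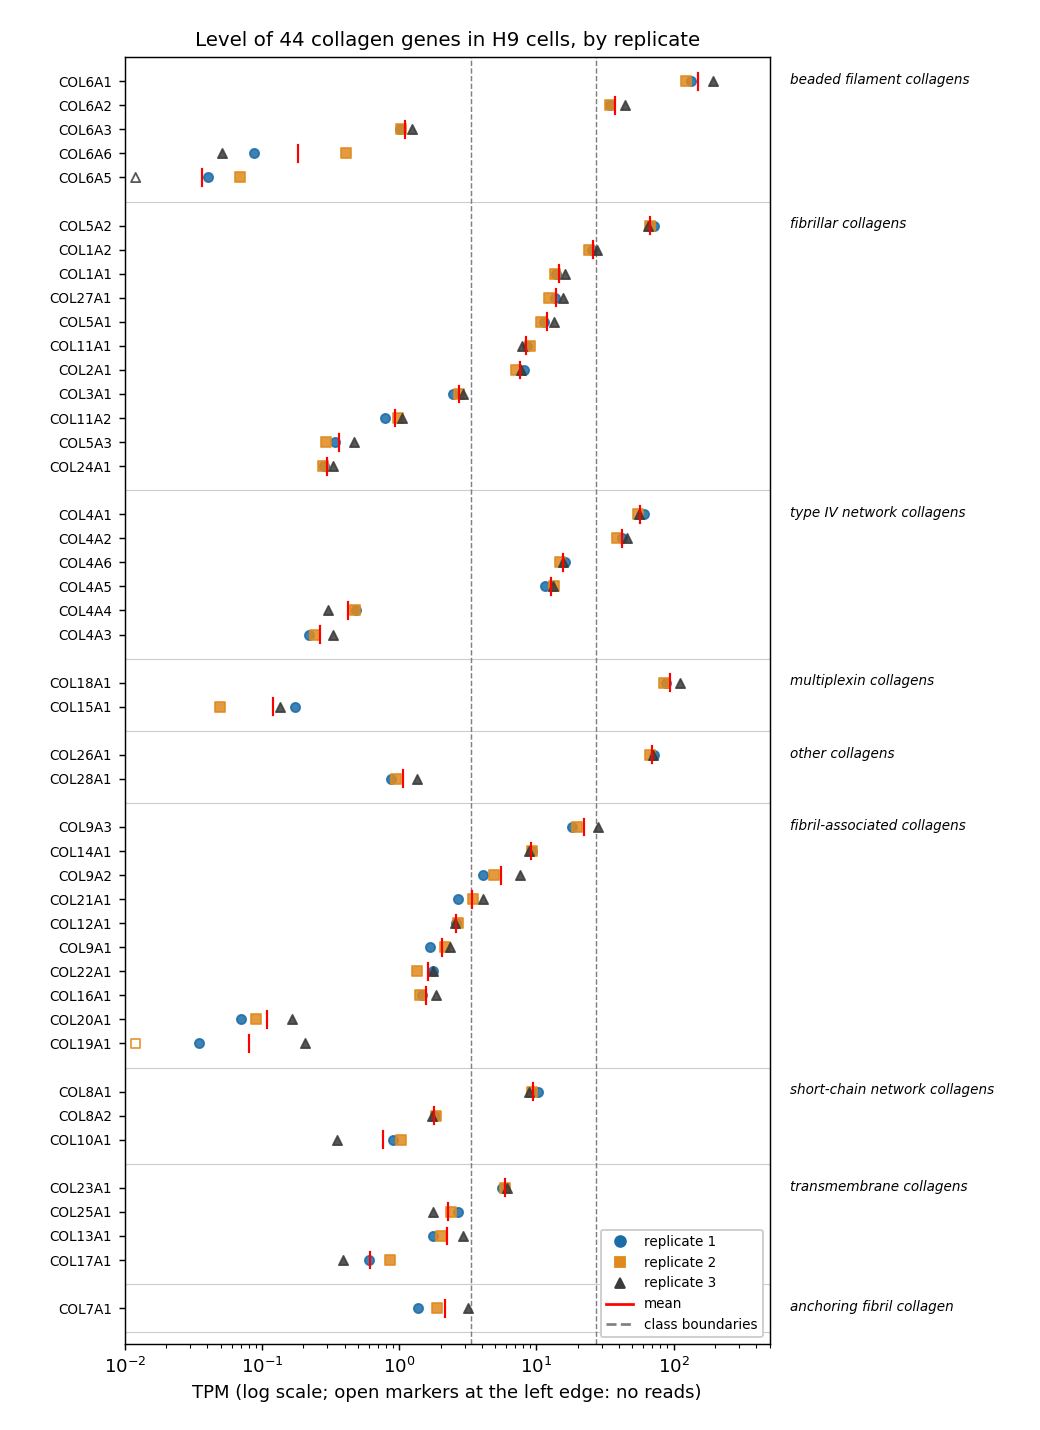
Level of each of the 44 collagen genes in TPM on a log axis, grouped by structural family, with 1 marker per replicate, the mean as a red bar and the class boundaries of 3.35 and 27.0 TPM as dashed lines. The 7 genes of the high class lie to the right of the second line, and the open markers of COL6A5 and COL19A1 at the left edge stand for replicates without a read.

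**Figure D2:**
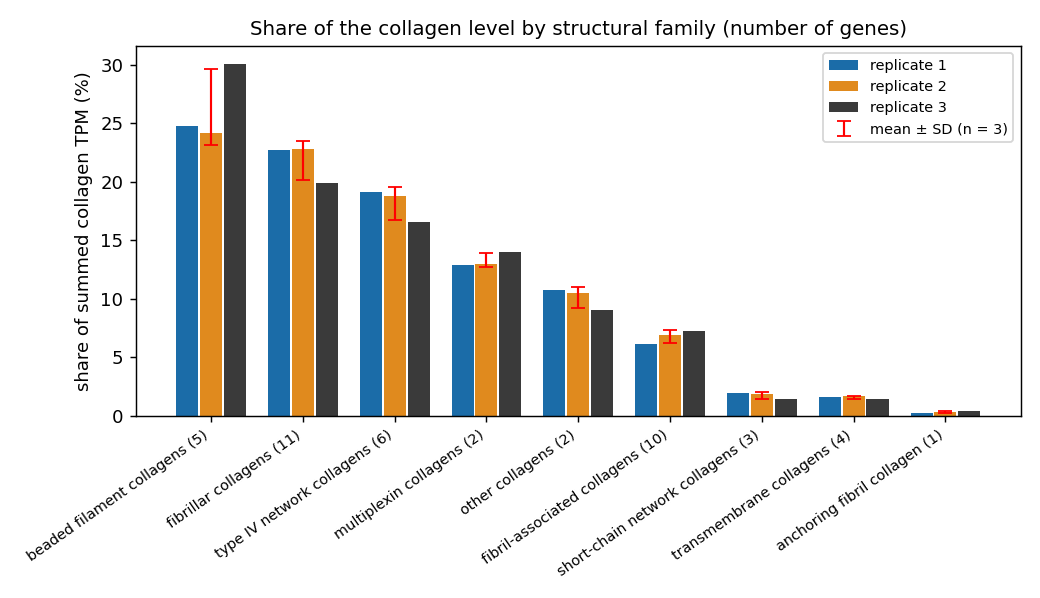
Share of the summed collagen TPM held by each structural family, in percent, with 1 bar per replicate, the mean ± SD of the 3 replicates in red and the number of genes in parentheses. The type VI family is at 24.8, 24.2 and 30.1% in replicates 1, 2 and 3, and the type IV family at 19.1, 18.8 and 16.5%.

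Type IV collagen is the network-forming collagen of basement membranes. Its 6 genes lie in 3 pairs, and the genes of a pair point away from each other across a short stretch that holds both starts of transcription. The stretch is printed for each pair because both genes of a pair share it and the pairs differed in level. The sequences are from RefSeq on GRCh38.p14 and are written 5′ to 3′ on the plus strand. Capitals mark each match, on either strand, to motifs that are common in promoters: the CCAAT box, the GC box GGGCGG and the TATA box searched as TATAAA.
COL4A1 and COL4A2, chr13:110307158-110307283, all 126 bases between the starts: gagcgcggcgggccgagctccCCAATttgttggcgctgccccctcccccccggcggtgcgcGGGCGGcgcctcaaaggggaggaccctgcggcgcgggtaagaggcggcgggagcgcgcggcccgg
COL4A4 and COL4A3, chr2:227164454-227164623, all 170 bases between the GENCODE starts: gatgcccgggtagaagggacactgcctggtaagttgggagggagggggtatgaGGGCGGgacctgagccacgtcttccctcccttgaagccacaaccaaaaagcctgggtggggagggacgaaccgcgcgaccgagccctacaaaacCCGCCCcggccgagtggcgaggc
COL4A6 and COL4A5, chrX:108439588-108439837, the 250 bases before the start of COL4A5: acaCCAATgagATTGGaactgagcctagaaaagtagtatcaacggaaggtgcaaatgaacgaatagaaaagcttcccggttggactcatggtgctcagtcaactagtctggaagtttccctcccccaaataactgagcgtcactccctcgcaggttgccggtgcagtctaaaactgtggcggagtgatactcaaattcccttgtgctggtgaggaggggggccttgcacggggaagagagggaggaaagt

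The starts of COL4A1 and COL4A2 in RefSeq are 127 bp apart, those of COL4A4 and COL4A3 419 bp and those of COL4A6 and COL4A5 380 bp. For COL4A6 this is the RefSeq start nearer to COL4A5, and another lies farther away, at position 108438422. In GENCODE, the starts of COL4A4 and COL4A6 lie nearer to their partner, at 171 and 341 bp, and the annotated span of COL4A2 begins inside that of COL4A1, with no exon of one over an exon of the other. The printed stretch of COL4A1 and COL4A2 had a GC content of 80.2% and 20 CpG dinucleotides, that of COL4A4 and COL4A3 65.9% and 12, and that of COL4A6 and COL4A5 51.2% and 8. No matches overlapped. The first held 1 match to CCAAT and 1 to GGGCGG, the second 2 to GGGCGG, and the third 2 to CCAAT. None of them held TATAAA. Among all 35116 RefSeq promoters of 300 bases, 34.6% held CCAAT, 45.0% GGGCGG and 11.5% TATAAA on either strand. A match describes the letters only.

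COL4A1 (ENSG00000187498, chromosome 13, 110148963 to 110307157) had 60.6, 54.99 and 55.7 TPM in replicates 1, 2 and 3, a mean of 57.1 ± 3.04 TPM (SD, n = 3). COL4A2 (ENSG00000134871, chromosome 13, 110305812 to 110513209) had 42.0, 38.6 and 45.5 TPM, a mean of 42.0 ± 3.46 TPM (SD, n = 3). Both are the chains of nearly every basement membrane, with more COL4A1 than COL4A2 chains in a molecule. The ratio of COL4A1 to COL4A2 was 1.44, 1.42 and 1.22, above 1 in each replicate, with a mean of 1.36 ± 0.121 (SD, n = 3). This excess depended on gene length. The annotated exons of COL4A1 add up to 14662 bases and its longest transcript to 6540, and those of COL4A2 to 19271 and 6446. With the longest transcript as length, the levels were 96.3 ± 4.98 and 94.6 ± 8.05 TPM and their ratio 1.02 ± 0.0908, below 1 in replicate 3. The reads themselves were 6567 and 6305 over the 3 replicates. The ranges of the 2 genes did not overlap with the first length.

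COL4A5 and COL4A6, on the X chromosome, make the chains of the basement membranes of smooth muscle, skin and parts of the kidney. COL4A6 had 16.1, 14.9 and 15.7 TPM, a mean of 15.6 ± 0.622 TPM (SD, n = 3), and COL4A5 11.6, 13.4 and 13.1 TPM, a mean of 12.7 ± 0.958 TPM (SD, n = 3). COL4A5 was the lower gene in each replicate, with a ratio of 0.718, 0.896 and 0.833. With the longest transcript the direction turned, to 1.08 ± 0.119, with COL4A5 below COL4A6 in replicate 1 only, and in reads the ratio was 1.04 ± 0.115. COL4A3 and COL4A4, chains of the basement membranes of the glomerulus, lung and inner ear, had 25 and 40 reads over the 3 replicates. COL4A4 was at 0.487, 0.475 and 0.305 TPM and COL4A3 at 0.219, 0.242 and 0.330 TPM, and the ranges of the genes overlapped. Their means of 0.423 ± 0.102 and 0.264 ± 0.0587 TPM (SD, n = 3) were in the low class. Within each pair the levels were thus within 1.60-fold of each other in the mean, while the pairs ranged from below 1 TPM to above 40 TPM. COL4A3 shares 6.82% of its exon length with the lncRNA gene MFF-DT on the opposite strand, on which 50 reads were counted.

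Type VI collagen forms beaded filaments in the matrix next to cells, and a molecule is built from COL6A1, COL6A2 and a longer chain, most often COL6A3. COL6A1 (ENSG00000142156, chromosome 21, 45981770 to 46005050) had 134, 122 and 192 TPM in replicates 1, 2 and 3. COL6A2 (ENSG00000142173, chromosome 21, 46098112 to 46132848), 93061 bp downstream on the same strand with no protein-coding gene between, had 34.4, 34.1 and 44.5 TPM, a mean of 37.6 ± 5.95 TPM (SD, n = 3). Both genes were highest in replicate 3. COL6A3 (chromosome 2, 237324003 to 237414328) had 1.02, 1.03 and 1.24 TPM, a mean of 1.09 ± 0.123 TPM (SD, n = 3), from 183 reads in all. The 3 chain genes were therefore far from equal. The ratio of COL6A1 to COL6A2 was 3.91, 3.59 and 4.32, with a mean of 3.94 ± 0.366 (SD, n = 3), and that of COL6A2 to COL6A3 was 33.8, 33.1 and 36.03, with a mean of 34.3 ± 1.53 (SD, n = 3). With the longest transcript these were 3.35 ± 0.312 and 25.996 ± 1.16, and in reads 4.09 ± 0.380 and 8.503 ± 0.380. The direction was the same in every replicate by each measure. COL6A5 and COL6A6, whose chains can stand in for COL6A3, had 3 and 14 reads over the 3 replicates. COL6A6 had 2, 11 and 1 reads, so that its mean of 0.183 TPM rests on replicate 2, and it was 0.0690 TPM without it. The mean of COL6A5 was 0.0200 TPM without replicate 2 and 0.0545 TPM without replicate 3.

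Fibrillar collagens assemble into the banded fibers that bear tension. COL5A2 (ENSG00000204262, chromosome 2, 189031898 to 189225312), a chain of the type V collagen that sets the diameter of type I fibrils, was the highest of the 11 genes. It had 71.3, 67.3 and 64.5 TPM, a mean of 67.7 ± 3.43 TPM (SD, n = 3), and a GC content of its exons of 47.9%. Its partner COL5A1, which most type V molecules need, had 11.4, 10.9 and 13.4 TPM, a mean of 11.9 ± 1.37 TPM (SD, n = 3). COL5A2 was 5.76 ± 0.830 times COL5A1, or 4.67 ± 0.673 times with the longest transcript. A type V molecule usually has more COL5A1 than COL5A2 chains, whereas COL5A2 was the higher gene in RNA in each replicate. The remaining type V gene, COL5A3, had 0.366 ± 0.0892 TPM (SD, n = 3).

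Type I is the main collagen of bone, skin and tendon, and its molecule has more COL1A1 than COL1A2 chains, while COL1A2 was the higher gene in RNA. COL1A2 (chromosome 7, 94394895 to 94431227) had 25.3, 24.2 and 27.5 TPM, a mean of 25.6 ± 1.67 TPM (SD, n = 3), and COL1A1 (chromosome 17, 50184101 to 50201632) had 13.8, 13.6 and 16.2 TPM, a mean of 14.6 ± 1.43 TPM (SD, n = 3). The ratio of COL1A1 to COL1A2 was 0.546, 0.565 and 0.590, with a mean of 0.567 ± 0.0221 (SD, n = 3). On the log2 scale its SD of 0.06 was the smallest of the 8 plotted chain ratios. It was 0.479 ± 0.0186 with the longest transcript. COL3A1, the collagen of skin and vessel walls that accompanies type I in fibroblasts, was low, at 2.44, 2.74 and 2.93 TPM and a mean of 2.71 ± 0.246 TPM (SD, n = 3). COL1A2 was 9.51 ± 0.772 times COL3A1. COL3A1 lies tail to tail with COL5A2, 19151 bp away with no protein-coding gene between, and these neighbors differed 25.03-fold in mean level.

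Of the fibrillar genes known from cartilage, COL2A1, its main collagen, had 8.07, 7.04 and 7.71 TPM, a mean of 7.61 ± 0.522 TPM (SD, n = 3). COL11A1, which joins type II fibrils, had 8.42 ± 0.559 TPM (SD, n = 3), and COL11A2 0.937 ± 0.136 TPM (SD, n = 3). The ranges of COL2A1 and COL11A1 overlapped, and COL11A1 was 9.15 ± 1.66 times COL11A2. COL27A1 had 13.7, 12.3 and 15.6 TPM, a mean of 13.9 ± 1.63 TPM (SD, n = 3), and its range overlapped that of COL1A1. COL24A1, the other gene of that subgroup, had 0.296 ± 0.0295 TPM (SD, n = 3) from 22 reads.

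**Figure D3:**
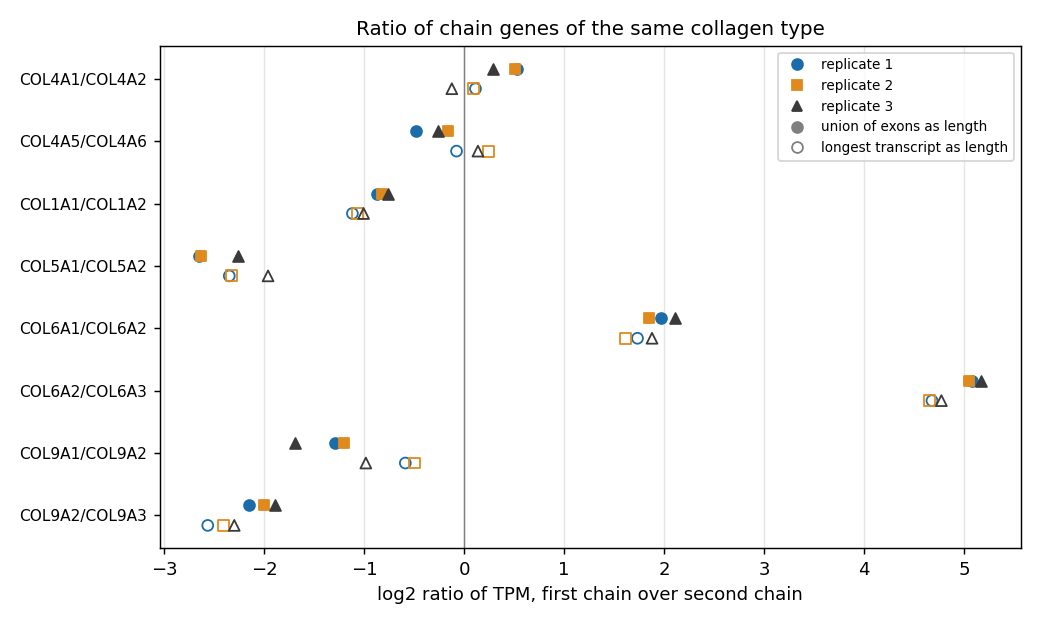
Log2 ratio of the TPM of genes for chains of the same collagen type, with filled markers for the union of exons and open markers for the longest transcript as gene length, and 1 marker per replicate. The markers of COL4A1/COL4A2 and COL4A5/COL4A6 lie on both sides of 0 with the longest transcript, whereas those of the type I, V, VI and IX pairs stay on the same side.

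COL18A1 and COL15A1 are the multiplexins, basement membrane collagens with many interruptions of the helix, and the end of COL18A1 yields endostatin, an inhibitor of vessel growth. COL18A1 (ENSG00000182871, chromosome 21, 45405165 to 45513720) had 88.1, 84.6 and 110 TPM, a mean of 94.3 ± 13.9 TPM (SD, n = 3). COL15A1 had 3, 1 and 2 reads, and its mean of 0.119 TPM has a 95% interval of 0.0438 to 0.260 TPM from its 6 reads (exact Poisson, counting error only). The exons of COL18A1 overlap those of SLC19A1, a folate carrier gene on the opposite strand, over 18.5% of their length, the largest overlap of any collagen gene. SLC19A1 had 36.8 ± 3.49 TPM (SD, n = 3), and whether the counting used the strand is not given in the sources used here, so that some reads could belong to either gene. RefSeq gives 2 starts for COL18A1, and gene counts do not tell their transcripts apart. COL26A1 (ENSG00000160963, chromosome 7, 101362875 to 101559024), a short collagen with an EMI domain, had 72.5, 67.5 and 70.2 TPM, a mean of 70.0 ± 2.51 TPM (SD, n = 3). Its range overlapped that of COL5A2.

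Fibril-associated collagens sit on the surface of fibrils. Of their 10 genes, 8 reached 1 TPM, 0 were in the high, 4 in the medium and 6 in the low class. Among all protein-coding genes, 67.4% reached 1 TPM and 28.8% were in each of these classes. COL9A3, a chain of type IX on cartilage fibrils, had 18.3, 19.7 and 28.1 TPM, a mean of 22.03 ± 5.32 TPM (SD, n = 3). COL9A2 had 4.10, 4.94 and 7.59 TPM, and COL9A1 1.67, 2.14 and 2.36 TPM. A type IX molecule has a chain of each, but the RNA fell in the order COL9A3, COL9A2, COL9A1 in every replicate, with COL9A3 at 4.05 ± 0.376 times COL9A2 and COL9A2 at 2.66 ± 0.493 times COL9A1. With the longest transcript the factors were 5.38 ± 0.4998 and 1.63 ± 0.302, and in reads COL9A1 and COL9A2 were near each other, with 166 and 179. COL14A1, found on type I fibrils, had 9.16 ± 0.273 TPM (SD, n = 3). The remaining genes of the family with at least 1 TPM were COL21A1, COL12A1, COL22A1 and COL16A1, with means from 1.58 to 3.41 TPM. COL20A1 and COL19A1 had 9 and 6 reads, and the mean of COL19A1, 0.0798 TPM, rests on replicate 3 and was 0.0174 TPM without it. COL9A3 shares 3.20% of its exon length with TCFL5 on the opposite strand and COL19A1 0.771% with LMBRD1, which had 24.3 and 9.18 TPM.

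Of the 10 genes in the families that remain, COL8A1 and COL23A1 were in the medium class, COL26A1, described above, was high and the others were low. Among the short-chain network genes, COL8A1, of vessel walls and the cornea, had 10.2, 9.34 and 8.86 TPM, a mean of 9.48 ± 0.705 TPM (SD, n = 3), and was 5.28 ± 0.331 times its partner COL8A2. COL10A1, the collagen of hypertrophic cartilage, had 9, 12 and 3 reads and a mean of 0.764 ± 0.362 TPM (SD, n = 3). The transmembrane genes COL23A1, COL25A1, COL13A1 and COL17A1 had means of 5.88, 2.28, 2.24 and 0.614 TPM. COL17A1 belongs to the hemidesmosomes of the epidermis. COL13A1 has 51 annotated transcripts, and the longest of them as gene length raised its mean 2.55-fold, to 5.71 TPM. COL7A1, which anchors the epidermis to the dermis, had 1.38, 1.90 and 3.16 TPM, and the ratio of its highest to its lowest replicate was the largest of any collagen gene with at least 100 reads. COL28A1 had 1.06 ± 0.263 TPM (SD, n = 3).

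Placed in order of the mean, most neighbors had overlapping ranges. In 34 of 43 neighboring pairs the ranges of the 3 replicates overlapped, and the pairs that did not overlap included COL6A1 and COL18A1, COL18A1 and COL26A1, COL5A2 and COL4A1, and COL4A1 and COL4A2. Ranges leave out that both genes of a pair were measured in the same libraries. COL26A1 was above COL5A2 in each replicate although their ranges overlapped, whereas COL23A1 was above COL9A2 in replicates 1 and 2 and below it in replicate 3. At the lower end, 42 genes had a read in each replicate and 38 had more than 3 reads, the number that a count of 0 allows. COL19A1 had no read in replicate 2, which allows up to 0.0900 TPM, and COL6A5 none in replicate 3, which allows up to 0.141 TPM. COL6A5 was the lowest gene, with 1, 2 and 0 reads and a mean of 0.0364 TPM (95% interval 0.00750 to 0.106 TPM, exact Poisson). Such intervals and limits describe counting error alone, as copies made by PCR do not count separate molecules. The 12 genes below 1 TPM had from 3 to 54 reads over the 3 replicates, so that their order rests on few reads. Differences among them were not tested, and an overlap of intervals does not show that 2 genes are equal.

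Collagen genes are large, with a median span of 144750 bp against 27589 bp for all protein-coding genes, and a median exon length of 9049 against 4471 bases. In both sets the union of exons exceeded the longest transcript, by a median factor of 1.34 in collagen genes and 1.23 in all. With the longest transcript, 5 collagen genes rose by more than 1.5-fold, namely COL4A1, COL4A2, COL13A1, COL9A1 and COL6A3, and 0 fell by as much. Of the 44 genes, 11 had exons that overlap a gene on the opposite strand, and in all but COL18A1 the overlap was under 10% of their length. The share of all protein-coding genes with such an overlap was not computed, so that this count has no background to be read against.

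Replicate 3 differed from the other 2 in the genes with GC-rich exons. Among the 22 collagen genes with at least 50 reads in every replicate, the log2 ratio of replicate 3 to the mean of replicates 1 and 2 ran from -0.15 in COL11A1 to 0.64 in COL13A1, with a median of 0.11, against a median of -0.03 in 10782 protein-coding genes with such counts. Of the 22, 12 were highest in replicate 3, against 33.6% of those protein-coding genes. All 10 with an exon GC content of at least 55% were higher in replicate 3, by a median of 0.27, as were 76.9% of protein-coding genes with such exons. Of the 12 collagen genes below 55%, 6 were higher and 6 lower, while 31.7% of protein-coding genes with such exons were higher. Pearson's r between exon GC content and this ratio was 0.592 and Spearman's rho 0.666 across the 22 genes, and r was 0.439 across the 10782 genes. These points share the same 3 libraries, and the values are descriptions. COL6A1, with 64.0% GC, was 1.499 times as high in replicate 3 as in the mean of the others, COL9A3 1.48 times and COL18A1 1.28 times, while COL26A1, with 64.2% GC, was 1.00 times.

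The coefficient of variation of COL6A1 was 25.03%, while its counts alone would give 2.18%. Without replicate 3 its mean was 128 TPM. After a correction of every replicate for exon GC content in 20 bins, which was added after the values had been seen, COL6A1 had 141, 133 and 169 TPM and the summed collagen level 702, 679 and 738 TPM. The spread of the sum fell from 72.5 to 29.8 TPM, and COL6A1 in replicate 3 was still 1.23 times the mean of the others. The correction was fitted to deviations between these same 3 replicates, so that a smaller spread is in part built in. The correction did not narrow every gene. The SD of COL26A1 rose from 2.51 to 7.72 TPM, with replicate 3 at 0.824 times the mean of the others. That of COL4A2 rose from 3.46 to 4.26 TPM. The source of the difference was not tested.

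**Figure D4:**
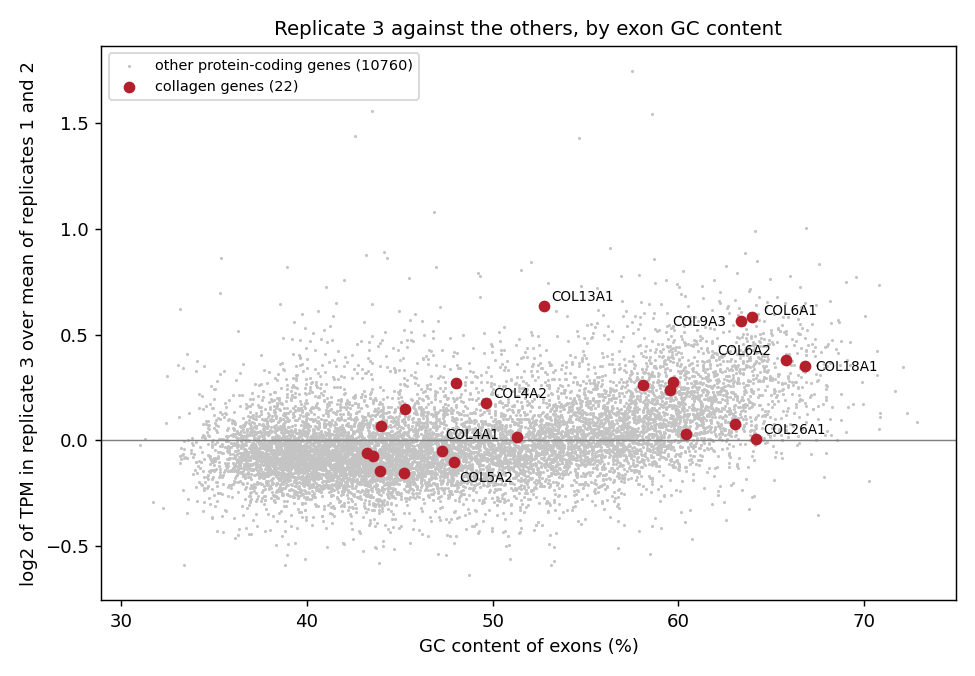
Log2 ratio of the TPM in replicate 3 to the mean of replicates 1 and 2 against the GC content of exons in percent, for protein-coding genes with at least 50 reads in every replicate, with the 22 collagen genes in red. The 10 collagen genes at 55% GC or above lie above 0, between 0.0044 and 0.58.

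Neighboring collagen genes are here those within 600 kb of each other, with or without other genes between. Outside the type IV pairs their levels differed from 1.59-fold, between COL18A1 and COL6A1, to 204-fold, between COL9A3 and COL20A1. COL9A3 and COL20A1 are 452026 bp apart with 8 protein-coding genes between them, and COL20A1 had only 9 reads. COL19A1 and COL9A1 lie tail to tail on chromosome 6 with 3571 bp between them, at 0.0798 and 2.06 TPM, a 25.8-fold difference. COL6A5 and COL6A6, 32330 bp apart on chromosome 3, were both below 0.2 TPM. On chromosome 21, COL6A1 lies 468049 bp from COL18A1 and 93061 bp from COL6A2, and all 3 were in the high class. Promoters of 300 bases, from 250 bases before to 50 after a start, were found in RefSeq for 32 of the 44 genes, 44 promoters in all. Their median GC content was 63.7%, against 58.7% over 35116 promoters, and 54.5% held GGGCGG, 31.8% CCAAT and 18.2% TATAAA. Over all promoters these shares were 45.0, 34.6 and 11.5%. The 44 promoters are not independent, as 5 genes have 2 and 3 genes have more, COL10A1, COL11A2 and COL21A1. The 2 windows of COL5A1 overlap, as do those of COL4A1 and COL4A2. The 28 promoters of the 22 genes with at least 1 TPM had a median GC content of 65.8% and 19.5 CpG, and the 16 promoters of the 10 genes below 1 TPM 59.8% and 16.5 CpG. The ranges overlapped almost wholly, from 38.0 to 86.7% and from 32.3 to 76.0% GC. COL15A1, at 0.119 TPM, had a promoter with 45 CpG, as many as that of COL4A1.

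A collagen chain is hydroxylated, glycosylated and folded in the endoplasmic reticulum, exported in large carriers, trimmed and cross-linked outside the cell, and such genes were examined as lists chosen with earlier results of these data known. Of 14 genes for hydroxylation and glycosylation, all 14 reached 1 TPM and 6 were in the high class, against backgrounds of 67.4% and 28.8%. P4HB, the shared subunit of prolyl hydroxylase, had 125 ± 1.09 TPM, P4HA1, its catalytic subunit, 60.6 ± 6.51 TPM, and COLGALT1, which adds galactose to hydroxylysine, 48.5 ± 0.625 TPM (SD, n = 3). Of 16 chaperones and export genes, 15 reached 1 TPM and 10 were in the high class. SERPINH1, the collagen chaperone HSP47, had 265, 252 and 245 TPM, a mean of 254 ± 10.01 TPM (SD, n = 3), above every collagen gene in each replicate. HSPA5, a general chaperone, had 350 ± 22.3 TPM and PPIB, a prolyl isomerase, 193 ± 7.00 TPM (SD, n = 3). The medians of these 2 lists, 24.5 and 36.1 TPM, were above the 2.65 TPM of the collagen genes and the 7.10 TPM of all protein-coding genes. Many of these genes also serve proteins other than collagens.

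The lists of procollagen processing, cross-linking, receptors and degradation had lower medians, from 2.30 to 6.94 TPM. Of 8 genes that trim procollagen, 7 reached 1 TPM but 0 were in the high class, with PCOLCE2 at 9.61 ± 1.47 TPM, BMP1, the protease for the C-terminal end of fibrillar chains, at 8.35 ± 0.880 TPM and PCOLCE, its enhancer, at 8.11 ± 1.46 TPM (SD, n = 3). Of 7 cross-linking genes, 1 was in the high class. This was PXDN, the peroxidasin that joins type IV molecules by sulfilimine bonds, at 119, 115 and 117 TPM and a mean of 117 ± 1.86 TPM (SD, n = 3). The lysyl oxidase genes LOXL2 and LOXL3 followed, at 26.7 ± 3.10 and 25.6 ± 1.77 TPM (SD, n = 3). PXDN was above COL4A1 and COL4A2 in each replicate.

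Of 10 receptor genes, 2 were in the high class, ITGB1, the integrin subunit that all collagen-binding integrins share, at 113 ± 8.30 TPM, and DDR1, a receptor tyrosine kinase for collagen, at 98.8 ± 9.37 TPM (SD, n = 3). MRC2, which takes up collagen, had 16.8 ± 3.58 TPM (SD, n = 3), and 6 of the 10 were in the low class. Of 7 genes for degradation, MMP14 and MMP2 were high, at 80.5 ± 1.57 and 73.7 ± 4.05 TPM, and CTSK had 6.77 ± 0.907 TPM (SD, n = 3). The collagenase gene MMP8 had no read in any replicate and MMP13 2 reads. All 11 partners in the basement membrane reached 1 TPM and 8 were high, with the matrix protein SPARC at 219 ± 15.996 TPM, the laminin chain LAMC1 at 145 ± 1.69 TPM and FBLN1 at 118 ± 5.38 TPM (SD, n = 3). LAMC1 was above each type IV gene in every replicate.

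**Figure D5:**
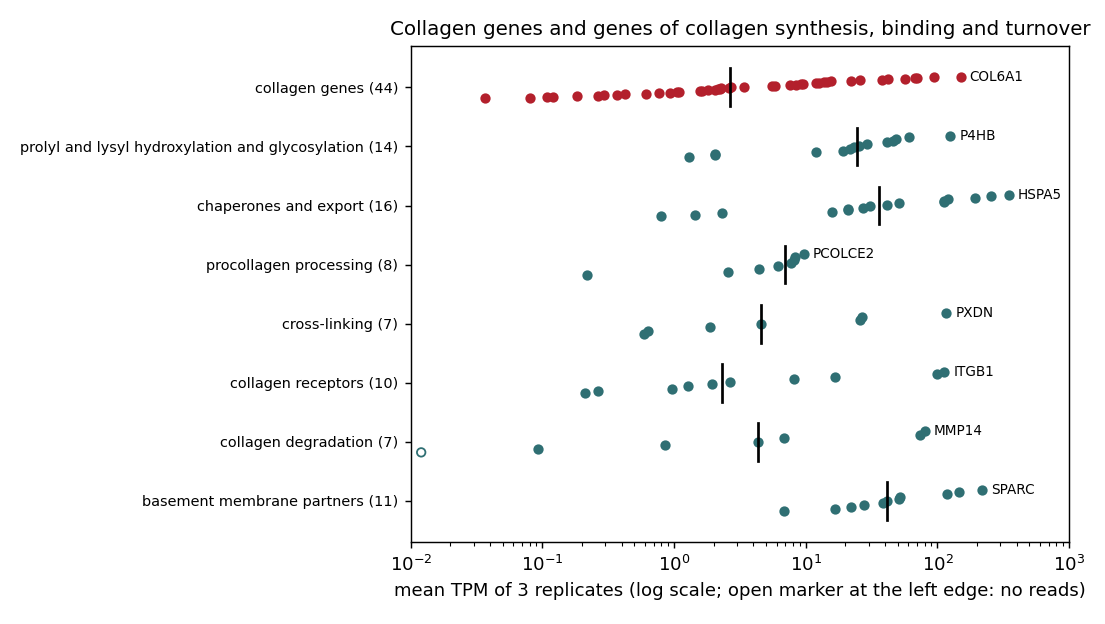
Mean TPM over the 3 replicates on a log axis for the 44 collagen genes and the genes of 7 lists of collagen synthesis, binding, degradation and basement membrane, with the median as a black bar and the highest gene named. The medians of the hydroxylation, chaperone and basement membrane lists, at 24.5, 36.1 and 41.6 TPM, lie to the right of the collagen median of 2.65 TPM, and the open marker is MMP8.

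The libraries were checked against markers of the labelled cell type and of cells that make much collagen. All 10 pluripotency genes were in the high class, and their summed level was 8594 to 9127 TPM. Of 10 markers of fibroblasts and mesenchyme, 5 reached 1 TPM, with a summed level of 145 to 167 TPM, most of it from THY1 at 145 ± 11.2 TPM (SD, n = 3), which is known on undifferentiated embryonic stem cells as well. TWIST2 had 5.93 TPM and PDGFRA 1.84 TPM, while TWIST1 had 3 reads and FAP 1 read over the 3 replicates. Of 7 cartilage markers, 5 reached 1 TPM, 1 was in the high class and 3 were in the low class, with a median of 6.11 TPM. The 3 highest were CNMD at 215 ± 39.0 TPM, SOX9 at 13.1 ± 1.80 TPM and MATN3 at 7.39 ± 0.143 TPM (SD, n = 3), while MATN1 had 1 read. The summed level of the 7 was 215, 225 and 289 TPM, most of it from CNMD, which had 187, 199 and 259 TPM. MATN3 had 7.31, 7.55 and 7.29 TPM. Of 6 endoderm markers, 4 reached 1 TPM, led by FOXA2, CXCR4 and SOX17 at 7.54, 2.26 and 1.68 TPM, with a summed level of 12.2 to 17.8 TPM. Of all protein-coding genes, 67.4% reached 1 TPM. The shares of the cartilage and endoderm markers were near this background, and that of the fibroblast markers was below it.

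Of 6 epidermal markers, 1 reached 1 TPM, a share below the 67.4% of all protein-coding genes. KRT5, KRT14 and KRT1 had no read and LAMB3 had 3, while KRT10 had 21.9 TPM and TP63 0.225 TPM. The summed level was 21.6 to 23.0 TPM, most of it from KRT10. Of 5 endothelial markers, 1 reached 1 TPM, also a share below that background. KDR had 76.5 ± 1.71 TPM (SD, n = 3), TEK 0.802 TPM and VWF 0.508 TPM. The summed level was 76.6 to 80.2 TPM, most of it from KDR. In bulk RNA, a low level in all cells and a high level in few cells cannot be told apart. The part of such cells in the collagen levels was not tested.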

How the data were processed

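RNA sequencing was analysed from 3 replicates of untreated H9 cells. Reads were trimmed by the authors with Trim Galore (0.4.4) and aligned to GRCh38 with TopHat2 (2.1.1), and the deposited values are counts, whole numbers of reads per Ensembl gene without normalization. Which counting tool, gene annotation and strand setting were used is not given in the sources used here. Cufflinks (2.2.1) values of the authors were not used.

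Identifiers were joined to GENCODE release 44 on the same build, with 56948 of 58051 matched and all 44 collagen genes found. TPM was computed from the counts and the union of exons over matched genes, without a pseudocount or filter, averaged, and classified after the study (nonexpressed below 0.01 TPM, the rest in 3 quantiles), with quantiles restricted here to protein-coding genes. The 3 libraries had 10390984, 12024802 and 8655155 counts. Exon GC content was read from the genome and promoters from RefSeq, and members without a promoter there are COL1A1, COL1A2, COL2A1, COL3A1, COL5A2, COL6A1, COL6A5, COL8A1, COL9A3, COL14A1, COL20A1 and COL22A1. R 4.3.3, edgeR 4.0.16, DESeq2 1.42.0, Python 3.11.15, numpy 2.4.6, pandas 2.3.3 and scipy 1.17.1 were used. edgeR and DESeq2 gave scaling factors and a filter for the alternatives only. No test between groups was made. The class step was run on counts simulated with Poisson error from the measured means, with some genes changed by known factors. The same gene lengths and class rule were used, so that this covers counting error only. The genes and lists were chosen with earlier results of these data known. Of the lists, the 3 highest genes and those with at most 3 reads are named, and of genes over exons of a collagen gene on the opposite strand, those with at least 50 reads. No gene outside these rules and the collagen genes is named, except loci with a collagen name.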

Additional observations from a re-analysis of the deposited data

Results flagged for a closer look

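Loci that carry a collagen gene's name but are not protein-coding were outside the comparisons above, and 4 of them exceeded, in all 3 replicates, the limit of 3 counts allowed by a count of 0. COL4A2-AS1 (chromosome 13, 110502575 to 110508179, minus strand) had 43, 53 and 44 counts, 140 in all, and 33.2 ± 3.14 TPM (SD, n = 3). Of its exon length 15.0% lies over exons of COL4A2, which has 42.0 TPM on the opposite strand, and the part of reads from COL4A2 in this count was not tested. COL18A1-AS1 had 74 counts in all and 2.77 ± 0.534 TPM, and COL18A1-AS2 had 17, 10 and 4 counts, 31 in all, and 7.03 ± 4.38 TPM (SD, n = 3). Both lie in the span of COL18A1 on the opposite strand and share no exon with it, and reads from introns of COL18A1 were not tested as a source. COL4A2-AS2 had 36 counts in all and 3.04 ± 0.933 TPM (SD, n = 3), and 0.920% of its exons lie over those of COL4A2.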

How the results depend on the processing

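Rescaling by TMM or DESeq2 factors, leaving mitochondrial genes out of the TPM total, the median of the replicates, leaving out each replicate in turn and the added correction for exon GC content left all 14 summary results within their spread between replicates or, for counts of genes, within 1.5 times. Many of these outcomes were fixed in advance. With 3 replicates, a mean over 2 of them and the median always stay within 1 SD of the full mean. Rescaling and leaving out mitochondrial genes multiply all genes of a replicate by the same factor, which cancels in the shares and log2 ratios. The GC correction takes out deviations from the mean of the replicates, so that means change little by construction. With the longest transcript as gene length, the summed level of 710 TPM became 815 TPM, the type IV share of 18.1% became 27.7% and the fibrillar share of 21.8% became 19.2%. The log2 ratios became 0.029 for COL4A1/COL4A2, -1.06 for COL1A1/COL1A2, 1.74 for COL6A1/COL6A2, -2.42 for COL9A2/COL9A3 and -2.21 for COL5A1/COL5A2, from 0.44, -0.82, 1.97, -2.01 and -2.51, and that of COL4A5/COL4A6 turned from -0.30 to 0.10. CPM, which does not divide by length and is another unit, gave a sum of 1509 CPM, a type IV share of 32.8% and log2 ratios of 0.050, -1.08, -2.21 and -1.91 for the COL4A1, COL1A1, COL9A2 and COL5A1 pairs, and 0.054 for COL4A5/COL4A6. A pseudocount of 1 TPM gave -1.83 for COL9A2/COL9A3, since it pulls low values together. The number of nonexpressed collagen genes, 0, became 2 and 12 with thresholds of 0.1 and 1 TPM, and 3 with the counts thinned to 10%, where fewer reads reach fewer genes. The medium class of 14 genes fell to 8 with the threshold of 1 TPM and to 8 after filterByExpr, which leaves 33 of the 44 genes. With class boundaries from all genes, 11 collagen genes were low and 16 high, from 23 and 7, without a background of protein-coding genes for these boundaries. Over single genes, the longest transcript moved 16 means higher and 5 lower by more than their SD, thinning to 10% 4 higher and 4 lower, and leaving out mitochondrial genes 6 higher. No paired analysis was possible because there is only 1 condition.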

Other observations

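Of the other loci with a collagen name, the pseudogene COL6A4P2 had 3, 4 and 7 counts and 0.478 ± 0.283 TPM (SD, n = 3), more reads than the 3 of COL6A5 on the same chromosome. COL5A1-AS1 and COL25A1-DT had 2 counts each, COL6A2-DT and COL6A4P1 had 1 each, and the pseudogene COL11A2P1 had 0.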
